A study of Homo sapiens with 12 samples.

Results

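The 79 nuclear genes examined here carry the symbols of mitochondrial ribosomal proteins. The set is not exact, since MRPS36 was later placed in another complex and 4 mitoribosomal proteins have other symbols, as given below. They were taken by symbol: all rows of the count table named MRPL or MRPS with a number and an optional letter from A to C, plus DAP3. The rule found 84 rows of 20323, which hold 79 symbols. MRPL2, MRPL30, MRPS17 and MRPS5 stood at more than 1 identifier, and the identifier with the highest total was kept, which set aside 5 rows. All 79 genes passed the low-count filter that left 12718 genes for testing. By place in the human mitoribosome structure, or by symbol for MRPS36, 51 were counted with the large subunit and 28 with the small one. MRPS30 and MRPS18A are counted with the large subunit, where the structure places their proteins, despite their symbols.

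RNA was sequenced from cells labelled A549, an established human lung adenocarcinoma line, after poly(A) selection. Libraries titled WT carry the genotype label WT and are called LKB1-intact here after the series design, whereas those titled con are labelled LKB1-deficient. Parental A549 is known to carry an inactivating STK11 mutation, and how either kind of cell was obtained is not given in the labels. Cells of both kinds were pretreated with phosphate-buffered saline (PBS) or with high-dose AA, which the titles call VitC, at a dose and for a time that are not given. Each of the 4 groups held 3 libraries, 12 in all. Whether the 3 libraries of a group stem from separate cultures is not stated, and every p-value below therefore rests on a spread between libraries that may be purely technical.

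Mitochondrial ribosomes translate the few messages of the mitochondrial genome, all of which code for subunits of the respiratory chain and ATP synthase. Their RNAs are made inside the organelle, while every one of their proteins is encoded in the nucleus, made in the cytosol and imported. Some proteins have counterparts in bacterial ribosomes and others were acquired in the mitochondrial lineage. Among the 51 large subunit genes, 30 have a bacterial counterpart, as do 16 of the 28 small subunit genes. These counts follow the structure names. By them MRPS18A (mL66) and MRPS18B (mS40) count as mitochondrial acquisitions despite their relation to a bacterial protein, and so does MRPS36 (mS36).

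The libraries held 16055534 to 20306129 estimated counts. STK11, which encodes LKB1, was lower in every deficient library, at 4.86 to 7.34 CPM (counts scaled to library size) against 23.6 to 28.2 in the intact libraries. The keratin genes KRT8 and KRT18 were high, at 434.2 to 1115.6 and 484.4 to 1007.0 FPKM (fragments divided by the length of the transcript and the depth). EPCAM lay at 4.07 to 7.48 FPKM. Other markers set for this line were at or near 0: AKR1B10 reached at most 1.48 FPKM, AKR1C2 0.837, CDH1 0.499, KRT19 0.389, SFTPC 0.214, NKX2-1 0.031 and ALDH1A1 0.029. High AKR1B10, AKR1C2 and ALDH1A1 are commonly described for A549, so the labelled identity does not match all of its markers. Of 6 markers of other cell types, COL1A1 lay at 2.84 to 5.36 FPKM and the other 5 (PTPRC, DCN, PECAM1, VWF and ALB) did not exceed 0.318.

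Levels per transcript length spanned a wide range within the ribosome. Averaged over the 12 libraries, MRPS24, the uS3m protein near the messenger entrance, was highest at 185.3 FPKM, followed by MRPL3 (uL3m) at 172.2 and DAP3, a GTP-binding protein also linked to apoptosis, at 152.6. MRPL44, whose protein has a ribonuclease III-like fold, MRPL57 and MRPL50 were lowest at 14.0, 11.3 and 6.39 FPKM. The median was 46.1 FPKM for the large and 49.6 for the small subunit.

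Under PBS no difference between the genotypes was called in these genes. Of the 79, 0 were higher or lower in deficient cells at a Benjamini-Hochberg adjusted p under 0.05 in edgeR's quasi-likelihood test. At an unadjusted p under 0.05 there was 1, which was higher, and DESeq2 and limma on FPKM called 0. Over all genes 0.055% were called higher and 0.22% lower. The 79 genes together took 0.5007 ± 0.00153% of all counts in intact and 0.5013 ± 0.011% in deficient cells (SD, n = 3 each).

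Most of the genes were higher under AA in both genotypes. In deficient cells 58 of 79 rose and 9 fell, whereas 37% of all genes tested rose and 37.4% fell. In intact cells 57 rose and 3 fell, beside 34.5% and 35.2% of all genes. The median log2 change in deficient cells was 0.35 for the large and 0.35 for the small subunit, and in intact cells 0.21 and 0.26. The median of all genes was 0.01 in each genotype. The 3 AA libraries lay above all 3 PBS libraries for 59 members in deficient cells and for 54 in intact cells, against 37.7% and 36.3% of all genes. They lay below for 9 and 3 members, against 37.8% and 36.4% of all genes. As a share of all counts, the 79 genes reached 0.566 ± 0.0144% in intact and 0.641 ± 0.00361% in deficient cells under AA (SD, n = 3 each).

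**Figure D1:**
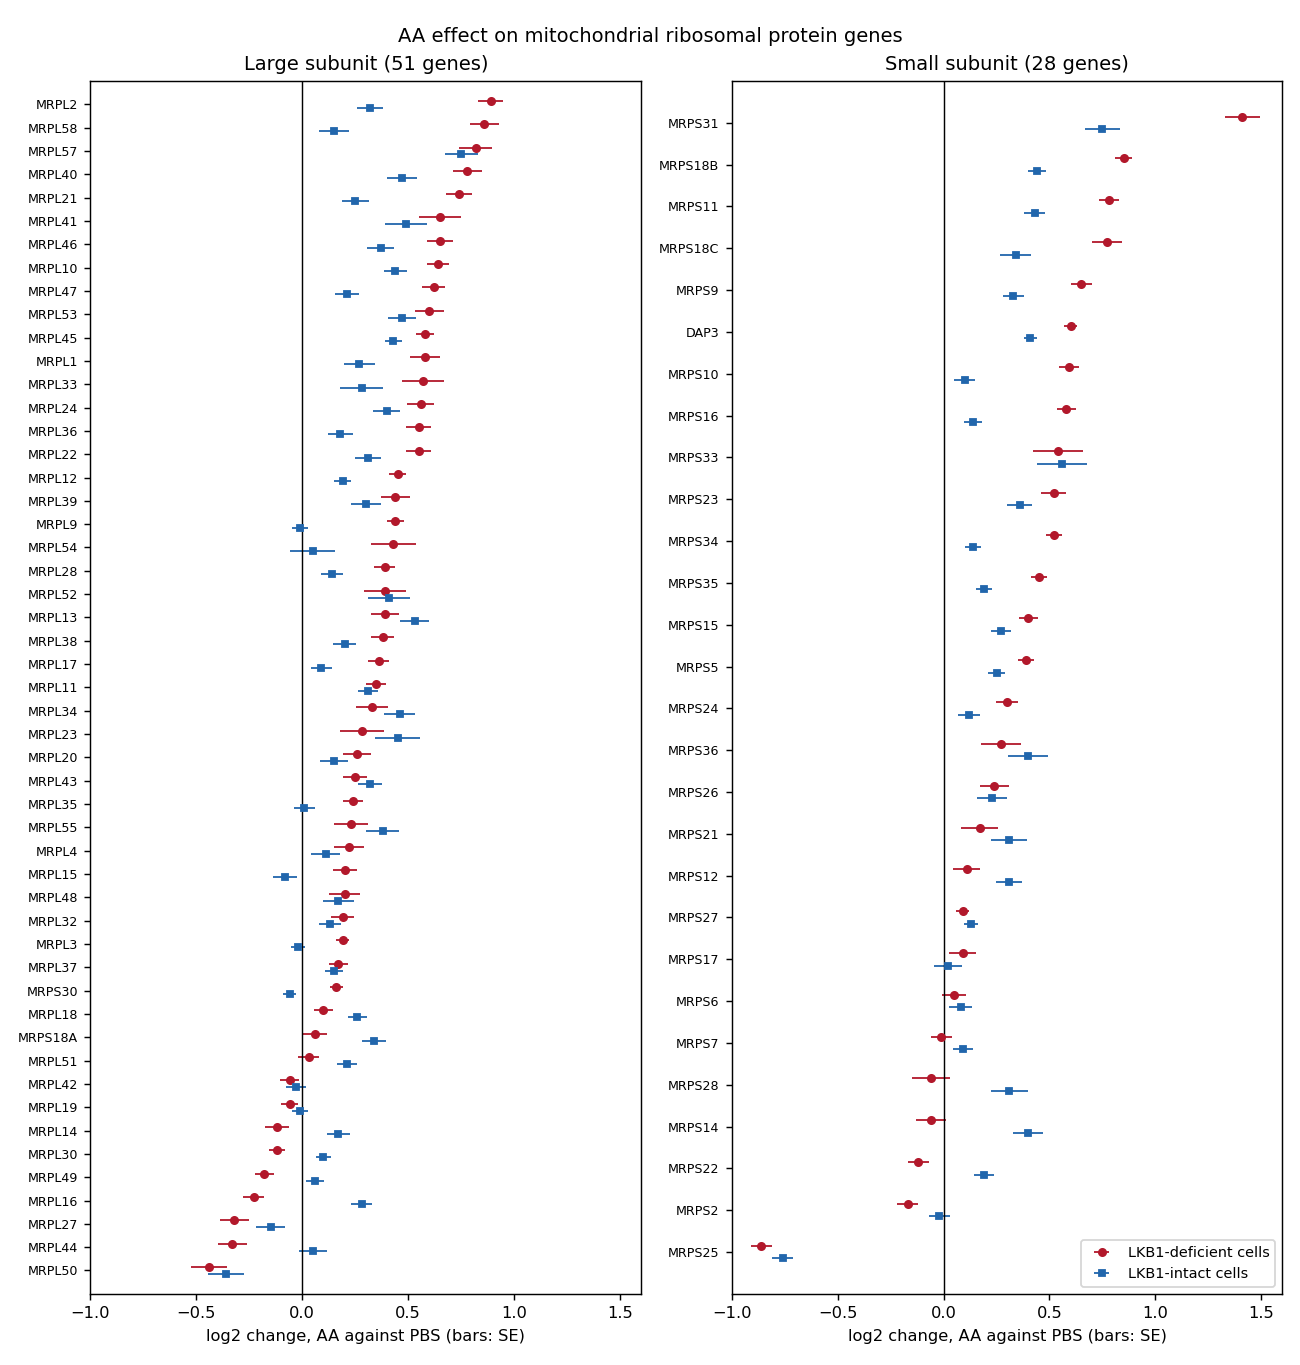
Log2 change under AA against PBS for each gene (points, with SE bars) in LKB1-deficient cells (red circles) and LKB1-intact cells (blue squares), by subunit. MRPS31 stood highest at 1.41 in deficient cells, MRPS25 lowest at -0.86, and most points lie to the right of 0 in both genotypes.

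Before the removal of length trends described below, the subunits moved by like amounts. In the large subunit 40 of 51 genes rose and 6 fell in deficient cells, and 36 rose and 2 fell in intact cells. In the small subunit 18 of 28 rose and 3 fell in deficient cells, and 21 rose and 1 fell in intact cells. Genes with a bacterial counterpart had a median of 0.32 in deficient cells (33 of 46 rose) and mitochondrial acquisitions one of 0.39 (25 of 33 rose). In intact cells both medians were 0.23. The small subunit genes acquired in mitochondria had the highest subgroup median in deficient cells at 0.49, with 10 of 12 up, while among the 16 small subunit genes with a bacterial counterpart 8 rose and the median was 0.24. None of these subgroup differences was tested.

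Summed FPKM of the large over the small subunit lay at 1.81 to 1.82 in the 6 PBS libraries. The ratio was 1.78 to 1.82 in the intact AA libraries and 1.73 to 1.75 in the deficient AA libraries, so the deficient AA libraries lay below all others. The ratio of the median FPKM did not follow: it was 1.09 or higher in each deficient AA library, against 0.944 to 1.04 in deficient PBS, 0.888 to 0.969 in intact AA and 0.984 to 1.10 in intact PBS libraries. In shares of counts, large subunit genes went from 0.299 ± 0.006% to 0.3743 ± 0.00252% in deficient cells and small subunit genes from 0.2023 ± 0.00503% to 0.2663 ± 0.000577% (SD, n = 3 each).

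**Figure D2:**
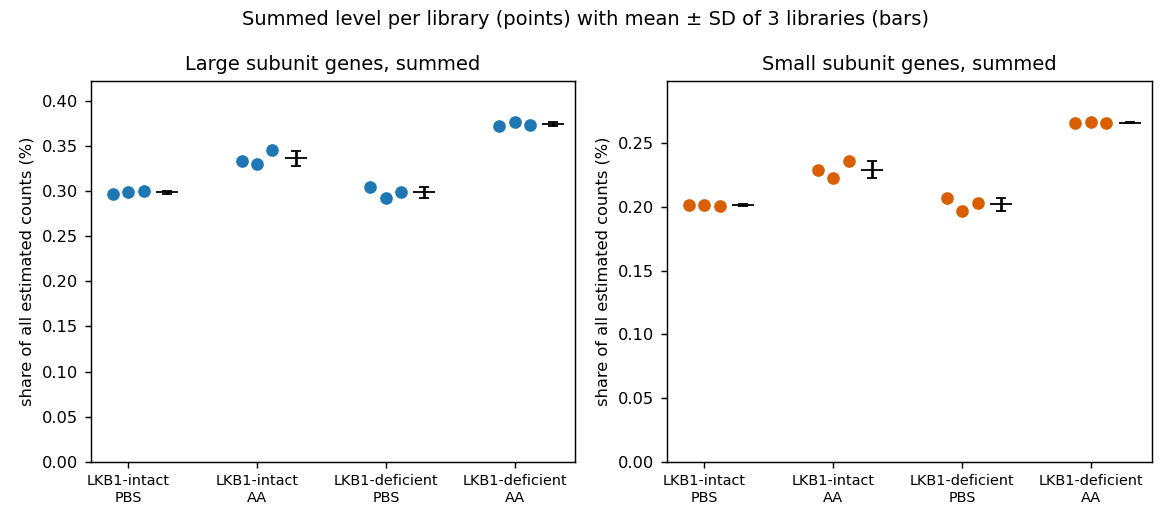
Share of all estimated counts taken by the large (left) and small (right) subunit genes in each library, with mean and SD of 3 libraries per group. The PBS groups of both genotypes coincide, and the deficient AA libraries, with means of 0.3743% and 0.2663%, lie above all others.

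The AA effect went along with transcript length over all tested genes. It was higher for short transcripts, with Spearman's rho of -0.41 in deficient and -0.39 in intact cells across 12711 genes, which are not independent. Across the 79 members alone rho was -0.16 and -0.29. Mitoribosomal genes are short, with a median effective length of 1148 bases against 2599 for all genes. Of the 79 genes 58 lay in the shortest of 5 equal length classes of all genes, which ran from 207 to 1533 bases. In that class all genes had a median of 0.38 and 64.3% rose in deficient cells, while the 58 members had a median of 0.36 and 44 rose. In intact cells the values were 0.30 and 58.8% for all genes of the class and 0.28 and 47 of 58 for the members. The members' medians lay near those of all genes of this class, while the share of members that rose was above that of all genes in both genotypes. In the second class (1533 to 2197 bases) the 16 members had a median of 0.30 in deficient cells, and 11 rose. All genes of that class had 0.16 and 46.8%. In intact cells its members had 0.10 and 7 rose, against 0.11 and 41.0% of all its genes.

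With each library's trend on length removed, the group rise was gone. In deficient cells 27 members were then called up and 29 down, with medians of -0.03 for the large and 0.06 for the small subunit. In intact cells 12 were called up and 25 down, with medians of -0.04 and 0.05. The calls were then less alike between subunits. In the large subunit 14 were up and 19 down in deficient cells, and 4 up and 19 down in intact cells. In the small subunit 13 were up and 10 down in deficient cells, and 8 up and 6 down in intact cells. This split was not tested. Calls that stood in both fits in deficient cells were 27 rises and all 9 falls. Of the other rises, 9 became called falls and 22 were no longer called. In intact cells 12 of the 57 rises stood, 10 became called falls and 35 were no longer called, and the 3 falls stood. What produced the trend with length was not tested.

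**Figure D3:**
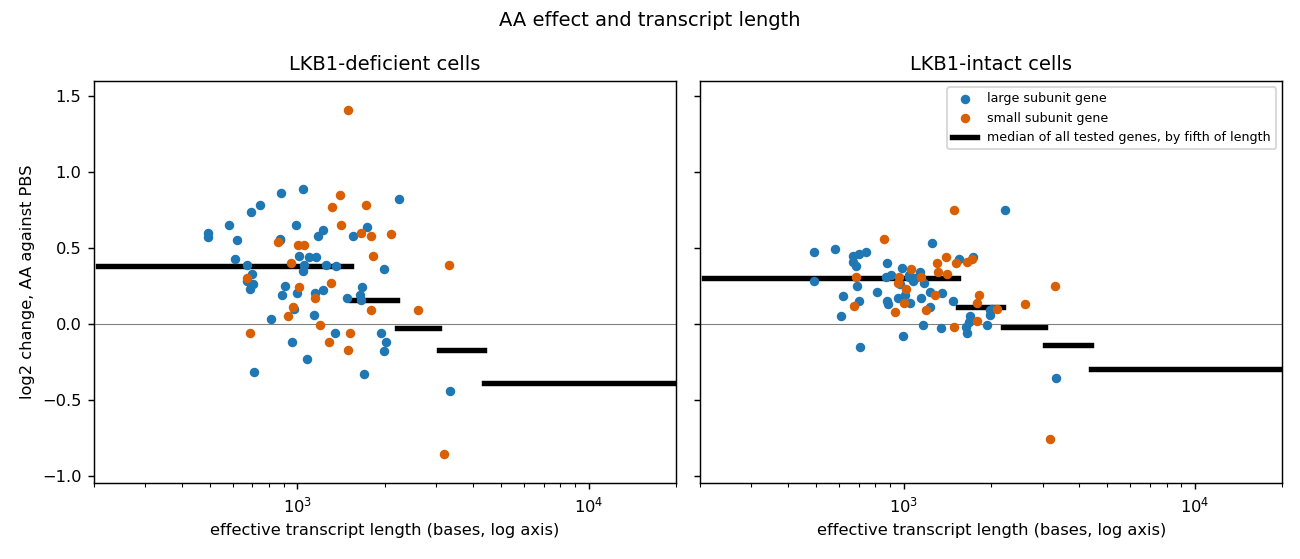
Log2 change under AA against effective transcript length (bases, log axis) for large (blue) and small (orange) subunit genes in deficient (left) and intact (right) cells. Black bars give the median of all tested genes in each of 5 length classes, 0.38 in the shortest class in deficient cells and 0.30 in intact cells, and most points scatter around them.

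The members' log2 changes in the 2 genotypes were correlated across the 79 genes, with Pearson's r of 0.69 and Spearman's rho of 0.58, and 0.65 and 0.54 with the length trends removed. The 2 effects come from different libraries that share the scaling and the cell line. Of the 79, 47 rose in both genotypes, 3 fell in both (MRPL27, MRPL50 and MRPS25), and 3 fell in deficient while rising in intact cells (MRPL16, MRPL30 and MRPS22). None of these 3 intact rises was called with the length trends removed (0.00, 0.04 and -0.04). On FPKM values only the MRPL16 fall was called (-0.17, limma adjusted p = 0.00606), while MRPL30 stood at 0.09 (adjusted p = 0.147) and MRPS22 at -0.04 (adjusted p = 0.458). By counts MRPL30 changed by -0.12 in deficient and 0.10 in intact cells (edgeR adjusted p = 0.00627 and 0.0182), and the intact call was lost without intact PBS library 1 (0.07, adjusted p = 0.112) or 2 (0.09, adjusted p = 0.0616) or intact AA library 2 (0.09, adjusted p = 0.0665).

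The difference between the AA effects was itself tested, and this is where the genotypes parted. It was higher in deficient cells for 32 members and lower for 10, against 21.6% and 23% of all genes. In the large subunit 20 were higher and 7 lower, and in the small subunit 12 and 3. The medians were 0.12 and 0.10, and -0.01 over all genes. With the length trends removed the counts were 28 and 15. Of the calls without that removal, 27 of the 32 higher and all 10 lower ones remained. Compared under AA alone, 37 members were higher in deficient cells and 13 lower (28.7% and 30.3% of all genes), a contrast that shares its AA libraries with the difference.

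**Figure D4:**
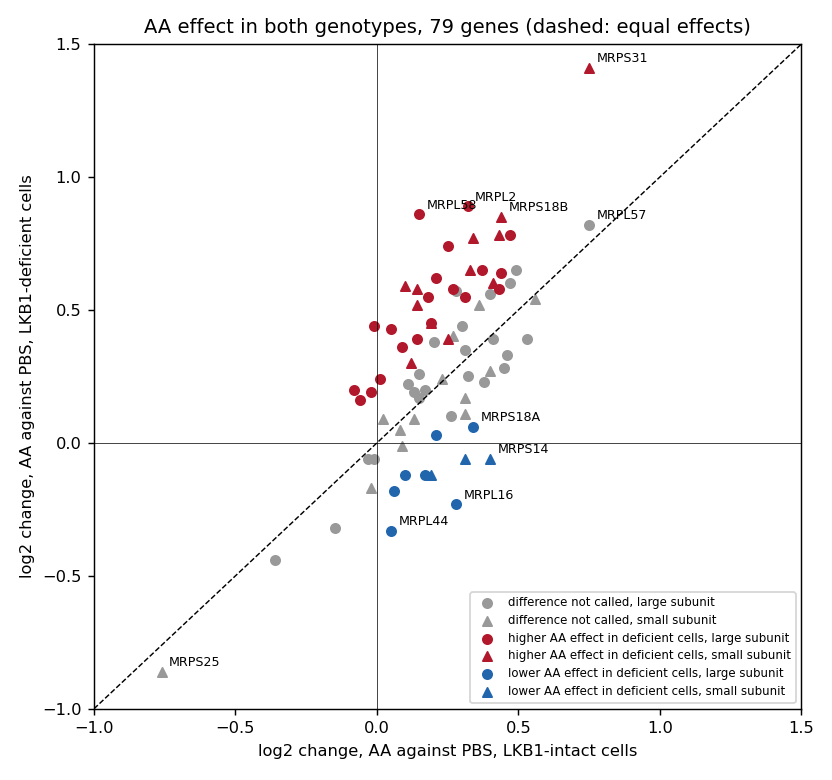
AA effect (log2 change) in LKB1-intact cells on the x axis and LKB1-deficient cells on the y axis for large (circles) and small (triangles) subunit genes. Red marks the 32 genes whose effect was higher in deficient cells, blue the 10 whose effect was lower, and the dashed line marks equal effects.

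Promoters of the members on both sides of that divide were compared next. RefSeq gives 70 of the 79 members a promoter window in GRCh38.p14, 87 windows of 300 bases reaching from 250 bases before to 50 after a start. Both strands were searched. The ETS-family core CCGGAAG, which the factor GABP binds, was found in 37.9% of the members' windows, 16.9% of the windows of tested genes and 10.3% of all windows. The YY1 motif AANATGGCG was found in 20.7%, 5.9% and 3.2%, and the palindromic NRF1 motif in 11.5%, 9.8% and 5.8%. ETS matches were held by 11 of the 27 matched members with a higher effect in deficient cells, by 5 of 9 with a lower effect and by 14 of 34 with no call. YY1 matches were held by 10, 2 and 6 of them in that order, and NRF1 matches by 4, 2 and 3. The letters CCAAT were held by 4 of 27, 5 of 9 and 14 of 34, and were found in 32.2% of the members' windows, 34.7% of the windows of tested genes and 34.6% of all windows. The letters CACGTG (E-box), TGACGTCA (CRE) and TGATGNAA (ATF4-CEBP) were searched as well. They were found in 10.3%, 1.1% and 1.1% of the members' windows and 9.4%, 2.8% and 2.0% of those of tested genes. CACGTG was held by 4 of 27, 2 of 9 and 3 of 34. None of these counts was tested, and a match is only a description of the letters in the window. GABPA and YY1, which encode 2 of these factors, fell by 0.37 and 0.33 on the log2 scale in deficient cells (edgeR adjusted p = 2.59e-06 and 8.69e-08) and by 0.39 and 0.44 in intact cells (1.24e-06 and 2.11e-09). Both were picked after their values were seen, from 11 regulators that also include NRF1 and GABPB1, not given singly here. Of the 11, 4 rose and 5 fell in deficient cells, and 2 rose and 8 fell in intact cells.

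The stretches upstream of all annotated exons are shown for MRPL58 and MRPS31, the 2 members with the highest difference in AA effect, for MRPL16, the member with the lowest, and for the 3 paralogues of ribosomal protein S18, which differ in response. They run 5′ to 3′ on the gene's strand, and capitals mark the ETS core, with no YY1 or NRF1 match in them. MRPS18B was cut at the end of its window and MRPS18C where the exon of its neighbour begins. The full windows counted above hold further matches outside the bases shown. These are ETS matches for MRPL16, MRPS18C and again MRPL58, and YY1 matches for MRPS18A and MRPS18B. The stretches alone therefore do not show which of these members hold a match.
MRPS31, chr13:40771191-40771310, minus strand: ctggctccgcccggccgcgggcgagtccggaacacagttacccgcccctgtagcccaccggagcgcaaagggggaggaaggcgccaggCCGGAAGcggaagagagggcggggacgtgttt
MRPL58, chr17:75012550-75012669, plus strand: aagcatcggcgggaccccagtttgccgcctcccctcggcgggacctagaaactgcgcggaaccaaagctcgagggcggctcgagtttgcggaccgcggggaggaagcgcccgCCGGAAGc
MRPL16, chr11:59810873-59810992, minus strand: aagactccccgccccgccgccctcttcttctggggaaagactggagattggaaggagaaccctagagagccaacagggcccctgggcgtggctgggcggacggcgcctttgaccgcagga
MRPS18A, chr6:43687792-43687911, minus strand: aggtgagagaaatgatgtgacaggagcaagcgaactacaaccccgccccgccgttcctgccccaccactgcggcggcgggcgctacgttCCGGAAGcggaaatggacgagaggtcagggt
MRPS18B, chr6:30617590-30617708, plus strand: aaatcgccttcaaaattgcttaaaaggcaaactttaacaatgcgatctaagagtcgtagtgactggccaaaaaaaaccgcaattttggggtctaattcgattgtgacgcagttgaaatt
MRPS18C, chr4:83455857-83455931, plus strand: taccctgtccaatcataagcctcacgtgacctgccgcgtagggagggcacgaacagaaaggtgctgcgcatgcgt

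MRPS31 (ENSG00000102738; chromosome 13, 40729135 to 40771173 on GRCh38, minus strand) encodes mS31, a mitochondrial acquisition of the small subunit. Its CPM were 13.7, 12.8 and 13.3 in intact PBS, 22.0, 21.7 and 23.0 in intact AA, 11.0, 13.8 and 14.3 in deficient PBS, and 32.8, 34.9 and 36.0 in deficient AA libraries. The AA groups lay above the PBS groups in both genotypes, and the deficient AA libraries above all others. The rise was 2.65-fold in deficient cells (log2 1.41, SE 0.0817, edgeR adjusted p = 1.02e-12) and 1.68-fold in intact cells (log2 0.75, SE 0.0846, adjusted p = 8.75e-08). The effects differed by 0.66 (SE 0.119, adjusted p = 0.000106), and by 0.57 with the length trends removed.

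MRPL58 encodes a peptidyl-tRNA hydrolase built into the large subunit, which can free peptides from stalled ribosomes. Its CPM were 32.1, 33.4 and 33.3 in intact PBS, 38.5, 35.5 and 36.1 in intact AA, 34.3, 27.9 and 34.7 in deficient PBS, and 55.7, 60.7 and 59.6 in deficient AA libraries. It rose by 0.86 in deficient cells (edgeR adjusted p = 1.64e-10), while the change in intact cells was 0.15 (adjusted p = 0.0553). The 3 intact AA libraries still lay above the intact PBS ones, and 4 alternatives in scaling, filter or libraries called that change (adjusted p of 0.00952 to 0.0483). With the length trend removed it was -0.19. The difference of 0.70 was the largest among the members (SE 0.0976, adjusted p = 4.38e-06).

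MRPL2 (uL2m), which lies close to the peptidyl transferase centre, held 27.3, 27.3 and 29.2 CPM in deficient PBS and 50.2, 53.8 and 51.7 in deficient AA libraries. In intact cells it went from 31.1, 27.9 and 28.1 to 36.3, 35.5 and 36.8. It rose by 0.89 and 0.32 on the log2 scale (0.03 in intact cells with the length trend removed, adjusted p = 0.685), and the effects differed by 0.57 (edgeR adjusted p = 8.47e-06). The other members at the top of this list were MRPL21 (bL21m), with changes of 0.74 in deficient and 0.25 in intact cells, and MRPS10 (uS10m, a protein of the small subunit's head), with 0.59 and 0.10. Their differences were 0.49 and 0.48 (adjusted p = 0.000102 and 5.44e-06). With the length trend removed the MRPL21 change in intact cells was -0.17 and called as a fall (adjusted p = 0.00941), while its difference was 0.49.

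The 3 paralogues related to bacterial protein S18 occupy different places, MRPS18A in the large subunit and MRPS18B and MRPS18C in the small one. MRPS18A held 44.0, 39.7 and 40.2 CPM in deficient PBS and 42.7, 41.3 and 44.9 in deficient AA libraries, which overlap. In intact cells it went from 41.0, 39.0 and 42.8 to 50.4, 54.0 and 51.1, without overlap. Its log2 change was 0.06 in deficient cells (edgeR adjusted p = 0.363) and it rose by 0.34 in intact cells (adjusted p = 1.73e-05). The difference was -0.28 (adjusted p = 0.00714), but -0.20 on FPKM values with limma (adjusted p = 0.0839). With the length trends removed the MRPS18A change in intact cells was 0.08 and not called (edgeR adjusted p = 0.25). The deficient change was then a called fall of -0.31 (adjusted p = 6.02e-05), and the difference -0.38 (adjusted p = 0.000479).

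MRPS18B went from 85.9, 85.1 and 81.9 CPM to 151.6, 150.6 and 155.1 in deficient cells and from 85.9, 84.2 and 91.5 to 113.9, 117.3 and 124.5 in intact cells. MRPS18C went from 34.8, 29.2 and 35.0 to 57.2, 59.1 and 53.1 and from 34.6, 30.3 and 31.8 to 41.4, 43.0 and 38.2. Both rose in both genotypes, by 0.85 and 0.44 for MRPS18B and by 0.77 and 0.34 for MRPS18C. Their effects were higher in deficient cells by 0.41 and 0.43 (edgeR adjusted p = 6.87e-06 and 0.00139), opposite in sign to MRPS18A. With the length trends removed the intact rise of MRPS18C was 0.13 and no longer called (edgeR adjusted p = 0.131). Its deficient rise (0.45) and those of MRPS18B (0.56 in deficient and 0.25 in intact cells) stood. How a count estimator shared reads among these paralogues is not given.

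**Figure D5:**
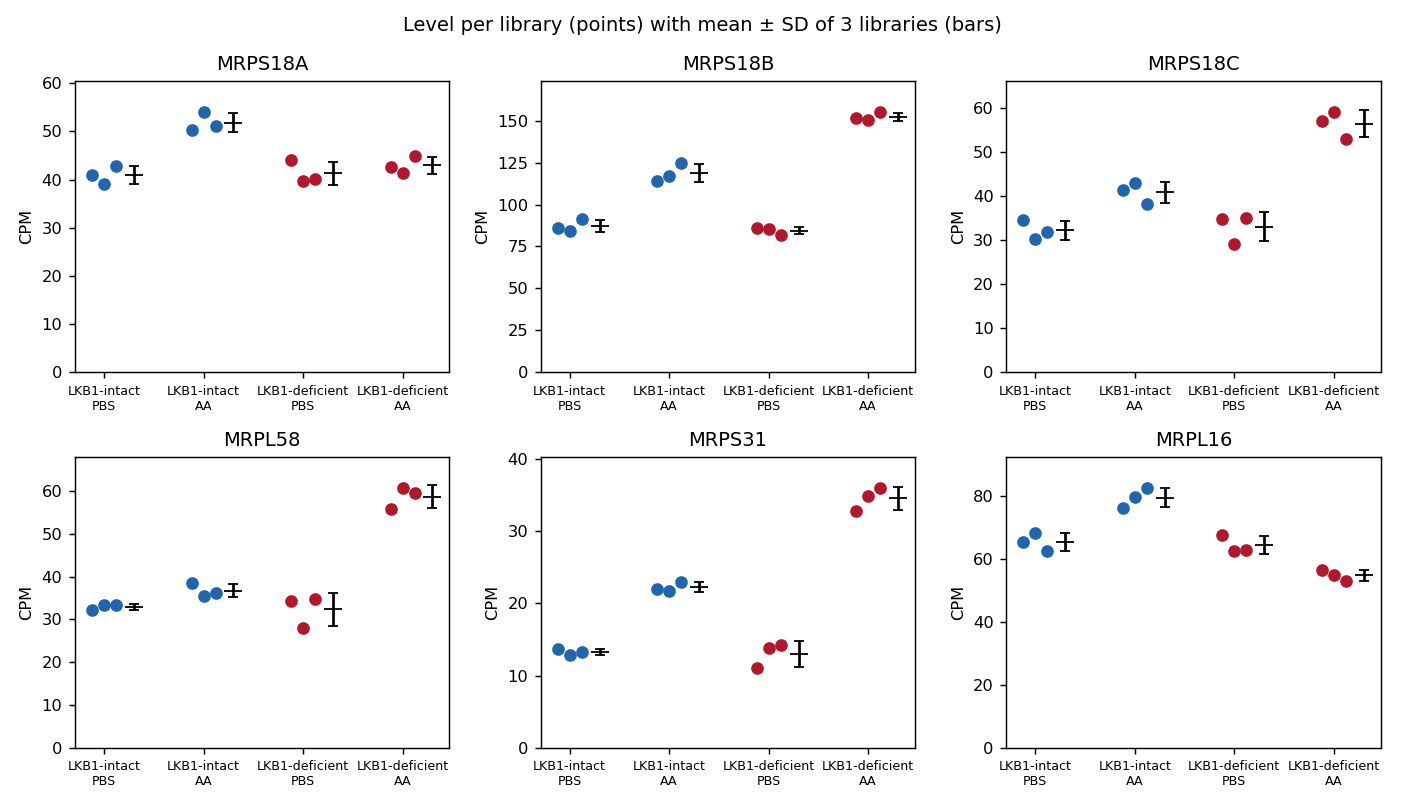
CPM per library (points, blue intact and red deficient) with mean and SD of 3 libraries for the S18 paralogues, MRPL58, MRPS31 and MRPL16. MRPS18A and MRPL16 are highest in intact AA libraries (50.4 to 54.0 and 76.4 to 82.7 CPM), and the other 4 genes in deficient AA libraries.

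MRPL16 (uL16m), which contacts transfer RNA in the large subunit, moved in opposite directions. Its CPM were 65.4, 68.3 and 62.7 in intact PBS, 76.4, 79.8 and 82.7 in intact AA, 67.8, 62.7 and 62.8 in deficient PBS, and 56.5, 54.9 and 53.1 in deficient AA libraries. It rose by 0.28 in intact cells (edgeR adjusted p = 2.23e-05) and fell by 0.23 in deficient cells (adjusted p = 0.000278). The effects differed by -0.51 (SE 0.0693, adjusted p = 3.15e-06). With the length trends removed the intact change was 0.00 and the difference -0.61.

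MRPS22 (mS22) changed by 0.19 in intact and -0.12 in deficient cells (edgeR adjusted p = 0.00188 and 0.0317), and the effects differed by -0.31 (adjusted p = 0.00102). Its deficient PBS and AA libraries overlapped, and the deficient call was lost with DESeq2 (-0.12, adjusted p = 0.0542) and on FPKM, as given above. It was also lost without deficient PBS library 2 (-0.13, adjusted p = 0.0509) or 3 (-0.09, adjusted p = 0.147), or deficient AA library 2 (-0.10, adjusted p = 0.101) or 3 (-0.11, adjusted p = 0.0904). The difference was -0.41 with the length trends removed (adjusted p = 2.49e-05). MRPS14 (uS14m) rose by 0.40 in intact cells, changed by -0.06 in deficient cells (adjusted p = 0.478) and differed by -0.46 (adjusted p = 0.000805). On FPKM values the deficient change of MRPS14 was 0.19 and called (limma adjusted p = 0.0478). MRPS28 rose by 0.31 in intact cells, changed by -0.06 in deficient cells (adjusted p = 0.555) and differed by -0.37 (adjusted p = 0.0188). Without deficient PBS library 2 the MRPS28 difference was -0.32 (adjusted p = 0.0547), and on FPKM values it was -0.11 (limma adjusted p = 0.389), with a called rise of 0.16 in deficient cells (adjusted p = 0.0445). With the length trends removed the deficient changes of MRPS14 and MRPS28 were called falls (-0.31 and -0.49, edgeR adjusted p = 0.000372 and 5.54e-05).

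MRPL44 held 27.1, 25.4 and 24.8 CPM in deficient PBS and 21.0, 20.9 and 19.6 in deficient AA libraries. In intact cells the values were 24.1, 23.4 and 24.3 under PBS and 25.1, 23.2 and 26.2 under AA. It fell by 0.33 in deficient cells (edgeR adjusted p = 0.000198), changed by 0.05 in intact cells (adjusted p = 0.483) and differed by -0.38 (adjusted p = 0.0026). MRPL14 (uL14m) was lower in deficient than in intact cells under AA by 0.31 (adjusted p = 5.19e-05).

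MRPS25 (mS25; ENSG00000131368, chromosome 3, 15042460 to 15065335, minus strand) fell most by counts in both genotypes. It went from 160.4, 139.1 and 151.1 to 84.3, 77.1 and 85.9 CPM in deficient cells and from 148.6, 150.5 and 143.8 to 85.2, 86.8 and 89.4 in intact cells. The log2 changes were -0.86 and -0.76 (edgeR adjusted p = 5.43e-13 and 8.64e-12). Its deposited FPKM did not follow: 35.0, 39.2 and 39.2 under PBS and 36.5, 37.1 and 38.0 under AA in deficient cells, which overlap, a change of -0.02 (limma on log2(FPKM + 1), adjusted p = 0.77). In intact cells the FPKM change was -0.21 (adjusted p = 0.0113).

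The transcript length behind the 2 tables changed with AA for this gene. The length that turns counts into FPKM averaged 3955 bases for MRPS25 in deficient PBS and 2284 in deficient AA libraries, and 3891 and 2676 in intact cells, with no overlap between the treatments. In log2 terms the length changed by -0.79 and -0.54. Such a weighted length falls when more of a gene's reads are assigned to its shorter transcripts, and with it divided out the deficient change was -0.02, as given above. Only MRPS25 and MRPS14 (-0.21 in deficient and -0.18 in intact cells) passed a log2 length change of 0.2 in deficient cells, as did 7.6% of all genes. In intact cells only MRPS25 did, beside 5.6% of genes. Members that did not pass it could also change in length. MRPS28 and MRPL30, whose deficient changes turned sign on FPKM values, had length changes of -0.17 and -0.15 in deficient cells. In intact cells these were 0.04 and -0.17. MRPL19 stood at -0.20 in deficient cells.

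MRPL50 and MRPL27 fell in both genotypes. MRPL50 (mL50) went from 22.5, 25.5 and 25.0 CPM to 15.1, 18.9 and 19.9 in deficient cells and from 24.6, 24.5 and 23.6 to 19.1, 19.1 and 18.5 in intact cells, falls of 0.44 and 0.36 on the log2 scale (edgeR adjusted p = 9.14e-05 and 0.000798). MRPL27 (bL27m) fell by 0.32 in deficient cells (adjusted p = 0.000204). Its intact change of -0.15 (adjusted p = 0.0446) was not called by DESeq2 (adjusted p = 0.0829), nor without intact PBS library 1 (-0.12, adjusted p = 0.148) or 2 (-0.15, adjusted p = 0.0866), nor without intact AA library 2 (-0.09, adjusted p = 0.237) or 3 (-0.16, adjusted p = 0.0707).

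MRPL57 (mL63) rose by like amounts in the 2 genotypes, from 19.5, 18.9 and 17.3 to 32.3, 32.0 and 34.1 CPM in deficient cells and from 16.4, 18.5 and 19.8 to 31.5, 28.0 and 32.6 in intact cells. The log2 changes were 0.82 and 0.75, and their difference of 0.07 had a 95% interval of -0.15 to 0.28 (edgeR adjusted p = 0.655). It is among the longer members, and its rises stood at 0.77 and 0.73 with the length trends removed. The other members with the largest rises in intact cells were MRPS33 (0.56), MRPL13 (uL13m, 0.53) and MRPL41 (0.49), and their differences of -0.03, -0.14 and 0.17 were not called (adjusted p = 0.915, 0.25 and 0.357). That of MRPL13 was called without deficient PBS library 2 (-0.22, adjusted p = 0.0481) and with the length trends removed (-0.25, adjusted p = 0.0248). With the length trends removed the intact rise of MRPL13 stood at 0.29. Those of MRPS33 and MRPL41 were no longer called (0.21 and 0.01, edgeR adjusted p = 0.113 and 0.897).

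In the stalk, which recruits translation factors, MRPL10 (uL10m) rose by 0.64 in deficient and 0.44 in intact cells and MRPL12 (bL12m) by 0.45 and 0.19. MRPL11 (uL11m) at the base of the stalk rose by 0.35 and 0.31. The MRPL12 effects differed by 0.26 (edgeR adjusted p = 0.000594) and those of MRPL11 by 0.04 (adjusted p = 0.666). The MRPL10 difference of 0.21 (adjusted p = 0.0276) was lost without any 1 of 6 libraries, the largest adjusted p being 0.0849 without deficient PBS library 1 (0.17). The others were deficient PBS 3 (0.18), deficient AA 1 (0.19), and intact PBS 1, intact PBS 3 and intact AA 2 (0.20 each). With the length trends removed it was 0.14 (adjusted p = 0.115). The MRPL10 rises then stood at 0.46 and 0.31, while MRPL11 was at -0.03 and 0.02, neither called. MRPL12 was then at 0.06 in deficient cells (edgeR adjusted p = 0.171) and a called fall of -0.11 in intact cells (adjusted p = 0.0111).

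DAP3 rose from 207.5, 207.2 and 216.5 to 323.2, 315.6 and 314.8 CPM in deficient cells and from 205.7, 209.4 and 201.6 to 273.8, 265.9 and 280.2 in intact cells. That is 1.51-fold and 1.33-fold, and the log2 effects differed by 0.18 (SE 0.0441, edgeR adjusted p = 0.0017). MRPS30 held 156.0, 158.2 and 155.8 CPM in deficient PBS and 175.9, 176.9 and 173.2 in deficient AA libraries, a rise of 0.16 (adjusted p = 8.37e-05). In intact cells the change was -0.06 (adjusted p = 0.0842), and the effects differed by 0.22 (adjusted p = 0.000288). MRPL3 rose by 0.19 in deficient cells (adjusted p = 2.02e-05), changed by -0.02 in intact cells (adjusted p = 0.618) and differed by 0.21 (adjusted p = 0.000848). With the length trends removed MRPS30 and MRPL3 were not called in deficient cells (-0.05 and -0.03, edgeR adjusted p = 0.154 and 0.431). In intact cells both were then called falls (-0.20 and -0.16, adjusted p = 4.76e-06 and 5.94e-05). The differences stood at 0.15 and 0.13 (adjusted p = 0.00653 and 0.0125).

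MRPL36 (bL36m) rose by 0.55 and 0.18, and the effects differed by 0.37 (edgeR adjusted p = 0.00104). Its intact call was lost without intact PBS library 2 (0.12, adjusted p = 0.0953) or intact AA library 1 (0.15, adjusted p = 0.0565). With the length trends removed its deficient change was 0.12 (edgeR adjusted p = 0.0905) and its intact change a called fall of -0.27 (adjusted p = 0.000379). MRPL45, which anchors the ribosome at the inner membrane near the peptide exit, rose by 0.58 and 0.43. The MRPL45 difference of 0.16 (adjusted p = 0.0328) was no longer called when single libraries were left out. It was 0.13 without intact PBS library 1 (adjusted p = 0.10) or deficient PBS library 3 (adjusted p = 0.0826), and 0.07 with the length trends removed (adjusted p = 0.308). The same held for the MRPS24 difference of 0.19 (adjusted p = 0.0446), which was 0.12 without intact AA library 2 (adjusted p = 0.143). With the length trends removed the MRPS24 difference was 0.19 and called (adjusted p = 0.00361). The MRPL45 call was also lost without intact AA library 1 or 2, deficient PBS library 2, or deficient AA library 1 or 3 (0.15 to 0.16), and the MRPS24 call without any single library other than intact AA 1, intact AA 3 and deficient PBS 1 (0.12 to 0.20).

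MRPS12 (uS12m), a protein of the decoding centre, rose by 0.31 in intact cells (edgeR adjusted p = 0.000137) and changed by 0.11 in deficient cells (adjusted p = 0.131), where 4 other scalings or units called it. The difference was -0.21 (adjusted p = 0.0655), and -0.27 without intact AA library 2 (adjusted p = 0.0125). With the length trend removed the deficient change was -0.29 (adjusted p = 0.000138). MRPS36, first described as a ribosomal protein and later placed in the alpha-ketoglutarate dehydrogenase complex, rose by 0.27 and 0.40. The deficient call was lost without deficient PBS library 2 (0.17, adjusted p = 0.107) or deficient AA library 2 (0.24, adjusted p = 0.05).

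Without the removal of length trends, other parts of the mitochondrial gene expression machinery moved less evenly. Of the 4 mitoribosomal proteins with other symbols, GADD45GIP1, CHCHD1 and AURKAIP1 rose in both genotypes and PTCD3 was not called. With the length trends removed 1 of the 4 was up and 1 down in deficient cells, and 2 up and 0 down in intact cells. Among 17 translation factors 10 rose and 4 fell in deficient cells, with a median of 0.29, and 8 rose and 2 fell in intact cells, with a median of 0.15. With the length trends removed 8 were up and 5 down in deficient cells (median 0.16). In intact cells 6 were then up and 4 down (median -0.08). The initiation factors MTIF2 and MTIF3 changed by 0.72 and 0.84 in deficient and by 0.17 and 0.15 in intact cells, and the differences of 0.55 and 0.69 were called (edgeR adjusted p = 2.72e-08 and 4.99e-05). GUF1, a ribosome-bound GTPase, fell by 0.92 and 0.40.

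Assembly factors split, with 11 of 26 up and 9 down in deficient cells and 9 up and 10 down in intact cells. With the length trends removed 8 were up and 13 down in deficient cells, and 6 up and 11 down in intact cells. GTPBP10, a GTPase of large subunit assembly, rose by 1.04 in deficient cells and changed by 0.09 in intact cells (edgeR adjusted p = 0.189), a difference of 0.95 (adjusted p = 5.79e-09). RPUSD4, a pseudouridine synthase, fell by 0.98 and 0.39. Of 9 genes of transcription and the nucleoid, 3 rose and 4 fell in deficient cells, among them the DNA polymerase POLG with a fall of 0.98.

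The 13 messages that these ribosomes translate fell in both genotypes, all 13 of them, with medians of -1.29 in deficient and -0.78 in intact cells. The fall was larger in deficient cells for 11 of the 13, and smaller for MT-ND6 (a difference of 0.33, edgeR adjusted p = 0.00229), while MT-ND1 differed by 0.05 (adjusted p = 0.431). Cytosolic ribosomal protein genes also rose, 77 of 81 in deficient and 80 of 81 in intact cells, with medians of 0.53 and 0.67. With the length trends removed 43 of them were called up and 17 down in deficient cells (median 0.10), and 72 up and 0 down in intact cells (median 0.23). For them the difference in AA effect was lower in deficient cells for 32 and higher for 2, with a median of -0.14, against 10 lower and 32 higher and a median of 0.12 for the 79 mitoribosomal genes. The cytosolic set had 45 lower and 2 higher with the length trends removed. The 2 sets were not tested against each other.

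Of 11 regulators of mitochondrial biogenesis, 4 rose and 5 fell in deficient cells and 2 rose and 8 fell in intact cells. PPARGC1A, the coactivator PGC-1alpha, rose by 0.25 in deficient and fell by 0.28 in intact cells, and the effects differed by 0.53 (edgeR adjusted p = 0.000945). MYC fell by 0.59 and 0.94. Of 9 genes of mitochondrial proteases and chaperones, 4 rose and 3 fell in deficient cells. The protease gene LONP1 rose by 0.72 and 0.21, and the co-chaperonin gene HSPE1 fell by 0.78 in deficient cells and rose by 0.47 in intact cells, a difference of -1.25 (adjusted p = 3.33e-08).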

How the data were processed

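Titles and labels put the 12 libraries into 4 groups. The submitters' processing notes name RSEM, StringTie 1.3.1, HISAT2 2.1.0, Bowtie2 2.2.8 and fastp 0.18.0. Roles, genome build and strand setting were not given in the sources used here. As data, the authors deposited a table of estimated counts, of which 10.9 to 11.5% per library are fractional, and a table of FPKM, each with 20323 rows. Members and lists were chosen with earlier results of these data known.

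Estimated counts were rounded and filtered with a minimum count of 10, which kept 99.97% of them. edgeR 4.0.16 (R 4.3.3) with TMM factors of 0.987 to 1.03 fitted all 12 libraries by group and tested 5 comparisons, with p-values adjusted over 12718 genes and calls at 0.05. The SE was taken as the log2 change divided by the root of F, and CPM use TMM-scaled totals. The length behind each value is the deposited count over FPKM and library total. Positions come from GENCODE 29 (GRCh38), promoters from RefSeq, and MRPS5's identifier was not in GENCODE 29.

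Members named were the 5 largest called rises and falls per comparison with a mean log2 CPM of at least 3, fixed members of known role, the 3 highest and 3 lowest by FPKM, and up to 5 genes of each other list. MRPL30, MT-ND1, MT-ND6, the factor genes in the promoter comparison and some genes of the other lists were named after their values were seen. Alternatives were a replicate block, DESeq2 1.42.0, other scalings and filters, limma 3.58.1 on log2(FPKM + 1) or with 0.1 for genes with at least 1 FPKM in 3 libraries, 6 libraries alone, removal of length trends by lowess (span 0.3), a threshold of 0.01, and leaving out each library. Replicates differed by 2.01 to 4.26 chi-square per degree of freedom, so none was taken as a copy. The steps were tested on simulated counts.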

Additional observations from a re-analysis of the deposited data

Results flagged for a closer look

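The AA effects of 21 named members differed between LKB1-deficient and LKB1-intact cells by the test of the difference itself (deficient minus intact, log2 scale, edgeR adjusted p under 0.05). In the small subunit the effect was higher in deficient cells for MRPS31 (0.66), MRPS10 (0.48), MRPS18C (0.43), MRPS18B (0.41), MRPS24 (0.19) and DAP3 (0.18), and lower for MRPS14 (-0.46), MRPS28 (-0.37) and MRPS22 (-0.31). In the large subunit it was higher for MRPL58 (0.70), MRPL2 (0.57), MRPL21 (0.49), MRPL36 (0.37), MRPL12 (0.26), MRPS30 (0.22), MRPL10 (0.21), MRPL3 (0.21) and MRPL45 (0.16). It was lower for MRPL16 (-0.51), MRPL44 (-0.38) and MRPS18A (-0.28). The calls for MRPL10, MRPL45, MRPS24 and MRPS28 were lost when single libraries were left out, with differences of the same sign. With the length trends removed the differences of MRPL10 and MRPL45 were not called (0.14 and 0.07, adjusted p = 0.115 and 0.308). Those of MRPS24 and MRPS28 then were (0.19 and -0.38, adjusted p = 0.00361 and 0.0186).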

How the results depend on the processing

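Removing length trends changed the members' response most. In deficient cells the members called up and down were then 27 and 29 (25 and 27 with GC trends also removed, an alternative added after seeing the data). The subunit medians were -0.03 and 0.06 (0.00 and 0.07 with GC) for the large and the small subunit. In intact cells the counts were 12 and 25 (12 and 27) and the medians -0.04 and 0.05 (-0.06 and 0.05). For the difference in AA effect the medians were 0.07 and 0.03 (0.08 and 0.05), with 18 members lower once GC was included, and under AA alone 20 were lower (20 with GC) and the medians were 0.07 and 0.07.

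With length removed 24 members turned sign in deficient cells and 34 in intact cells, all from above to below 0. Of these, 9 and 10 went from a called rise to a called fall. Among them, the named members called in either fit, with values for length alone and then with GC, were in deficient cells MRPS12 (-0.29, -0.25), MRPS18A (-0.31, -0.26), MRPS30 (-0.05, -0.02), MRPS36 (-0.05, -0.13), MRPS24 (-0.12, -0.09) and MRPL3 (-0.03, -0.07). MRPL11 did so with length alone (-0.03), and MRPL12 stood at 0.00 with GC. In intact cells they were MRPL12 (-0.11, -0.18), MRPL21 (-0.17, -0.16), MRPS22 (-0.04, -0.01), MRPS28 (-0.11, -0.13), MRPL58 (-0.19, -0.15), MRPL36 (-0.27, -0.34) and MRPS24 (-0.31, -0.31), with MRPS12 at 0.00 for length alone and MRPL41 at -0.13 with GC. Between genotypes under AA, MRPS36 was -0.21 with GC. The cause was not tested.

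In deficient cells the large and small medians were 0.41 and 0.41 by library size only, 0.40 and 0.40 on log2(FPKM + 1) and 0.41 and 0.41 on log2(FPKM + 0.1), with 5 members down on either FPKM scale. The large median was 0.39 with upper quartile factors, and the small one 0.29 with subunits by symbol. In intact cells upper quartile factors gave 0.27 and 0.33. For the difference the medians were 0.18 and 0.15 by library size, 0.19 and 0.19 on log2(FPKM + 1) and 0.20 and 0.19 on log2(FPKM + 0.1), with 6 members lower on either. Under AA alone they were 0.18 and 0.18, 0.18 and 0.19, and 0.18 and 0.20. On log2(FPKM + 1), 60.3% of all genes called for the difference were higher, against 48.4% in edgeR. On FPKM the deficient changes of these named members turned sign, with a pseudocount of 1 and then 0.1: MRPS14 (0.19, 0.20), MRPS28 (0.16, 0.17) and MRPL30 (0.09, 0.09).

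Leaving out 1 library at a time gave large subunit medians of 0.30 to 0.37 in deficient cells, 0.09 to 0.17 for the difference and 0.06 to 0.14 under AA alone, the lowest of the last 2 without intact AA library 2. Same-numbered libraries did not deviate together (correlations of -0.094 to 0.054), and with the replicate number as a block MRPS24 in intact cells was called (0.11, edgeR adjusted p = 0.0478), as it was between genotypes under AA (0.12, adjusted p = 0.0423). Among counts and subunit medians, 344 values stayed within a set tolerance (1.5-fold for counts), 52 moved and 4 turned sign over all alternatives. A value that stayed was not always unchanged. With 1 library left out, 54 to 57 members were called up in deficient cells, against 58 with all libraries. The values that stayed include the counts called under PBS, which were 0 in every fit.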
